A study of Mus musculus with 9 samples.

Results

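The let-7 family and its relative miR-98 were followed in small RNA of B16F1 cells, an established melanoma line of C57BL/6J mouse skin. The 9 members are mmu-let-7a, mmu-let-7b, mmu-let-7c, mmu-let-7d, mmu-let-7e, mmu-let-7f, mmu-let-7g, mmu-let-7i and mmu-mir-98 (here let-7a to let-7i and miR-98). They were taken by name from the table of counts: every sequence tag listed under a hairpin of one of these names, and the mature names of the same members. They made up 425 of the 6414 entries of the table, under 12 hairpins, and held 429063 of its 2381030 counts (18.02%). The 21 mature names of the members were listed at 0 counts in every library, so that all values below come from the tags. A tag is a read sequence, and the counts of the tags of a member were summed by arm, 5p or 3p, of the hairpin. A tag that starts before position 35 of the hairpin was taken as 5p. In family totals, the entries of a sequence listed under several members were summed unless their counts were identical in every library. This gave 18 sums by member and arm, among 698 names and arms with a count in the whole table. There were 3 libraries of unexposed control cells. L-Tyr, the amino acid from which melanin is made, was given at 5 mM to the cells of another 3. The last 3 came from cultures kept with the thymidine analogue 5-Brd-2′-dU, which cells build into DNA, at 2.5 µg/mL. Both exposures lasted 72 h without a change of medium. The labels number the libraries of a group but do not say that they come from separate cultures, so the p-values measure the spread between these libraries, which may be technical.

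let-7 was among the first miRNAs known. Each hairpin is cut by Drosha and Dicer, and the strand of the 5p arm is the one mainly loaded into Argonaute, where its seed (bases 2 to 8) pairs with target mRNAs such as those of Hmga2, the Ras genes and cell cycle genes. The RNA-binding protein Lin28 blocks the maturation of let-7, and let-7 in turn represses Lin28. The family rises as cells differentiate and is known as a brake on growth in many tumours, melanoma included.

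The mature 5p sequences are shown because all 9 members share 1 seed and differ only at a few bases outside it, which is what the assignment of a tag to a member rests on. They were taken from RefSeq (GRCm38.p6), where all 12 hairpins had an entry, and the capitals mark the seed.
let-7a-5p: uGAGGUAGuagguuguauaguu
let-7b-5p: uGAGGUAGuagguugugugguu
let-7c-5p: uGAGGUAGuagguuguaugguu
let-7d-5p: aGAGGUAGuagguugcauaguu
let-7e-5p: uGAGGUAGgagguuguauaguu
let-7f-5p: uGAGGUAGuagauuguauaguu
let-7g-5p: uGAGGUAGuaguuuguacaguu
let-7i-5p: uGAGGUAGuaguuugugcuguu
miR-98-5p: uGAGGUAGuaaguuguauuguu
The 3p arms do not all share a seed. That of let-7b-3p is also found in miR-98-3p and in the 3p strands of let-7a-1, let-7c-2 and let-7f-1. Those of let-7d and let-7b, which hold most of the 3p counts, are shown with their bases 2 to 8 in capitals.
let-7d-3p: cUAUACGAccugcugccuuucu
let-7b-3p: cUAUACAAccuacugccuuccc

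The hairpins lie in clusters, some beside other miRNAs, and the coordinates here are exact matches to NCBIM37 with the annotation of GENCODE vM1. let-7a-1 (chr13:48633548-48633641), let-7f-1 (chr13:48633198-48633286) and let-7d (chr13:48631381-48631483) stand together on the minus strand, in no annotated host gene. let-7c-2 (chr15:85537033-85537127) and let-7b (chr15:85537749-85537833) are neighbours on the plus strand, also outside other genes. let-7a-2 (chr9:41344799-41344894) lies in an intron of the lincRNA D230004N17Rik, 5.29 kb from miR-100. let-7c-1 (chr16:77599902-77599995) lies 0.721 kb from miR-99a, opposite an intron of Gm11146, and let-7e (chr17:17967316-17967408) lies 0.46 kb from miR-125a. let-7f-2 (chrX:148346889-148346971) and miR-98 (chrX:148347757-148347864) share an intron of Huwe1. let-7g (chr9:106081171-106081258) lies in an intron of Wdr82, and let-7i (chr10:122422696-122422780, minus strand) stands alone. The mature 5p strand of let-7a, let-7c or let-7f is the same from both hairpin copies, and the table splits its reads between them almost evenly: copy 1 held 49.9% of the counts of shared sequences for let-7a, 50.0% for let-7c and 49.5% for let-7f. Both copies were therefore summed, and nothing can be said of a single copy from the 5p tags. The 3p strands of the copies differ in sequence. Their tags were few (265, 380 and 149 counts for let-7a, let-7c and let-7f) and were also summed by member.

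The libraries held 144452 to 424122 counts in all. Levels are given in CPM, relative to the TMM-scaled library total. A library without a count could still hold up to 3, which is 7.07 to 20.8 CPM of the unscaled total. Fewer cells of a type and less RNA per cell cannot be told apart in these bulk samples. Intervals and limits cover counting error only, since reads amplified without molecular identifiers are not independent molecules. miR-211-5p, a marker of the melanocyte lineage, was present in every library and separated all 3 groups, with 9612 to 15501 CPM in control cells, 20017 to 24359 CPM after L-Tyr and 6266 to 7389 CPM after 5-Brd-2′-dU. The other marker listed for this lineage, miR-204-5p, was low and all groups overlapped. It had 19.9 to 63.8 CPM in control cells, 11.4 to 79.7 CPM after L-Tyr and 0 to 28.5 CPM after 5-Brd-2′-dU. Replicate 3 of 5-Brd-2′-dU stood apart: miR-143-3p, a stromal marker, reached 263607 CPM there against at most 6653 CPM in the other libraries. Summed markers of erythroid cells (7082 CPM against 0 to 286), leukocytes (1502 against 0 to 68.7) and endothelium (7257 against 63.8 to 262) were also highest in it. Replicates 1 and 2 of 5-Brd-2′-dU also lay above every control library in the stromal sum (3349 and 4211 CPM against 1696 to 2994). The same held for the endothelial (262 and 259 against 63.8 to 114) and erythroid sums (87.2 and 19.4 against 0 to 18.2). Their leukocyte sums (0 and 13.0 CPM) did not lie above control, and their miR-199a-3p (262 and 356 CPM) lay below it. Replicate 2 of L-Tyr had the next highest stromal (7217 CPM), erythroid and leukocyte sums. Of its stromal sum 6653 CPM was miR-143-3p, while miR-199a-3p (488 CPM) lay within the control range of 474 to 938 CPM. Its leukocyte sum (68.7 CPM) was miR-150-5p alone, with miR-142a-5p and miR-223-3p at 0. The same library had the most of the hepatic marker miR-122-5p (76.3 CPM, against 21.4 CPM in replicate 3 of 5-Brd-2′-dU and 0 elsewhere). The part of these markers in the let-7 values was not tested. For the main changes and shares after 5-Brd-2′-dU, the values without this exposure's replicate 3 follow. Leaving it out does not remove the stromal, endothelial and erythroid differences from control.

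Among the 5p arms, let-7c was the most abundant member in all 3 groups. In control cells it reached 69938 ± 17958 CPM (SD, n = 3), followed by let-7a (49667 ± 11111), let-7b (27820 ± 7138), let-7d (19039 ± 4901), let-7g (15877 ± 2294), let-7i (15593 ± 2268), let-7f (14622 ± 2470), let-7e (4542 ± 763) and miR-98 (555 ± 246). Members next to each other in this order overlapped between control libraries, except that let-7a stood above let-7b, let-7f above let-7e, and let-7e above miR-98 in every library. The middle ranks differed between groups. let-7d had rank 4 in control cells and rank 7 after L-Tyr (9670 ± 1256 CPM), with let-7g, let-7f and let-7i between 11119 and 12927 CPM. In 5-Brd-2′-dU, let-7b (28702 ± 11368) and let-7a (29095 ± 9954) overlapped.

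**Figure D1:**
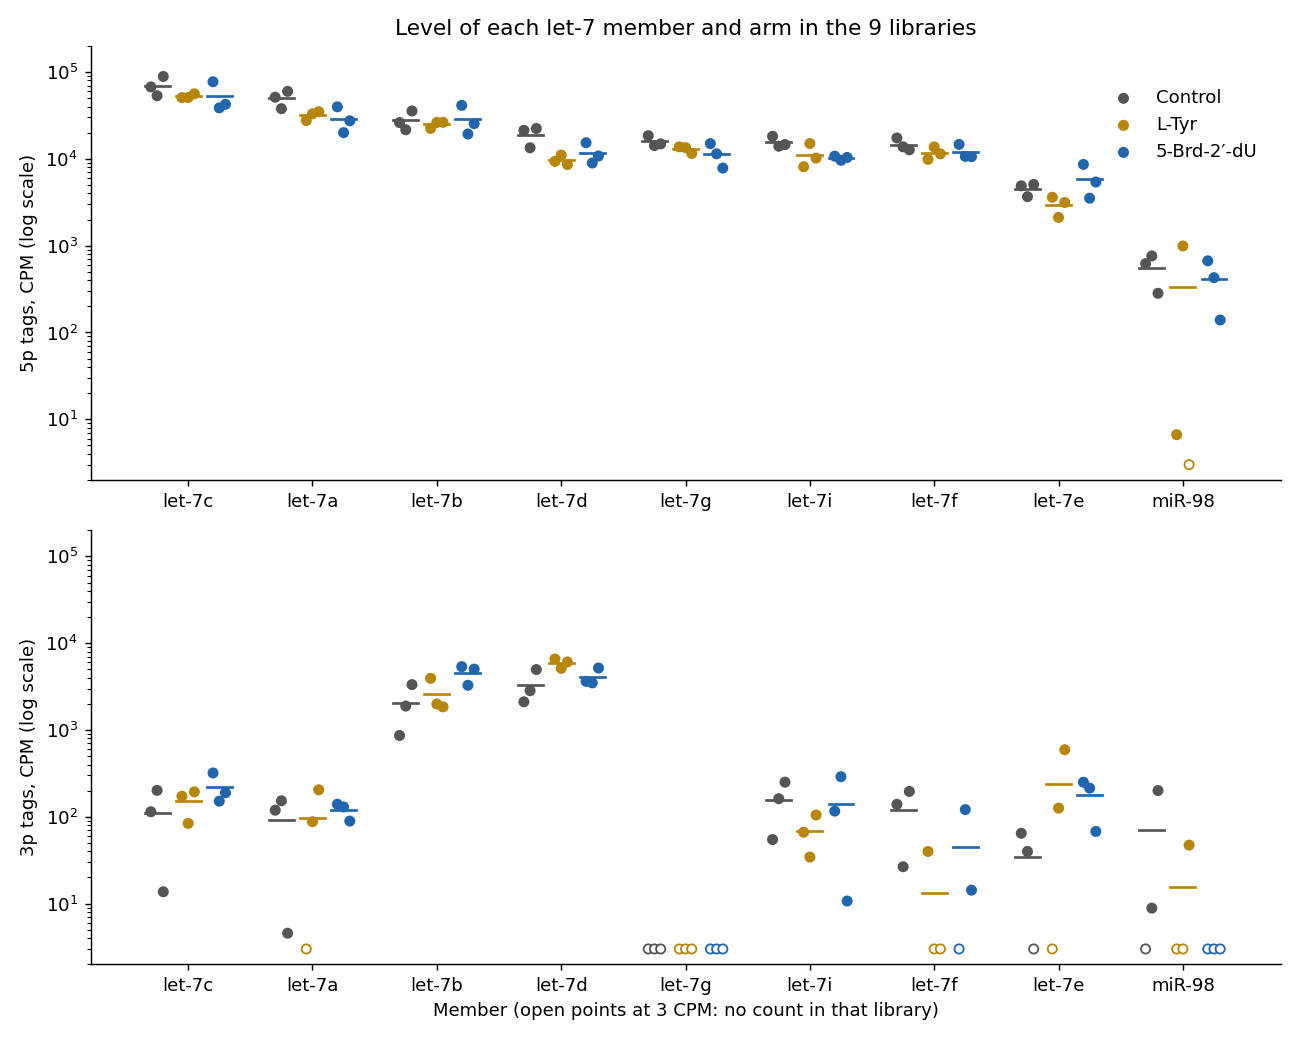
CPM of the 5p arm (top) and the 3p arm (bottom) of the 9 members on log axes, with 1 point per library, a bar at the mean of 3 libraries and colours for the groups. let-7d-5p lies lower and let-7d-3p higher in all 3 L-Tyr libraries than in the 3 control libraries, and the 3p arms other than let-7d and let-7b stay at or under 592 CPM.

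The family total of the 5p arms was 225827, 172654 and 254476 CPM in the control libraries. It was 145518, 166603 and 162333 CPM after L-Tyr, so that all 3 L-Tyr libraries lay below the control libraries, and 223489, 122702 and 140594 CPM after 5-Brd-2′-dU, where the groups overlapped. The log2 ratio of means to control was −0.46 after L-Tyr. After 5-Brd-2′-dU it was −0.42, and −0.33 without replicate 3. The total of the 3p arms had the opposite sign (log2 ratios of 0.62 and 0.66, and 0.56 for 5-Brd-2′-dU without replicate 3). These 3p ratios rest on the control libraries: they were 0.35 and 0.39 without replicate 1 of the control and 1.05 and 1.09 without its replicate 3. It was 3466, 5315 and 8965 CPM in control cells, 10789, 7450 and 9073 CPM after L-Tyr, and 9825, 7670 and 10571 CPM after 5-Brd-2′-dU, and both exposures overlapped with control. As a share of the family, the 3p arms took 2.63% ± 0.994 (SD, n = 3) in control cells, 5.49% ± 1.32 after L-Tyr and 5.70% ± 1.40 after 5-Brd-2′-dU. All 6 exposed libraries lay above the 3 control libraries in this share. These sums over chosen members were given no test.

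After exposure to L-Tyr, let-7d-5p was lower in the sums by name and arm, and it was the one member called. Its levels were 21325, 13413 and 22379 CPM in control cells and 9348, 11055 and 8606 CPM in the L-Tyr libraries. The groups did not overlap. The log2 fold change was −1.06 (SE 0.207), with a Benjamini-Hochberg adjusted p of 0.0267 in the quasi-likelihood test of edgeR over 233 names and arms. Of these 6 were called (2.58%), 2 of them lower (0.858%). Each SE was derived from the fold change and its F statistic. With 1 library left out the change was between −1.24 and −0.85. The call remained only without replicate 2 of the control, and in the other 5 such fits the adjusted p ran from 0.0525 (without replicate 2 of L-Tyr) to 0.237 (without replicate 1 of the control). Scaling by total count gave −0.80 with an adjusted p of 0.0713.

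let-7a-5p followed with 51273, 37840 and 59886 CPM in control cells and 27685, 33047 and 34919 CPM after L-Tyr. These libraries did not overlap either, yet the change of −0.72 (SE 0.180) had an adjusted p of 0.0989 in edgeR's test. let-7e-5p fitted at −0.71 (SE 0.259, adjusted p = 0.218 in edgeR's test) and also stood apart, with 4891, 3667 and 5068 CPM in control cells against 3612, 2113 and 3140 CPM. let-7g-5p also stood without overlap (−0.39, SE 0.176), from 14241 to 18499.5 CPM in control cells and from 11547 to 13756 CPM after L-Tyr. Of the 15 members and arms tested, these 4 lay wholly below control, and of all 233 names 26 did so (11.2%). The changes of the others overlapped: let-7i-5p (−0.58, SE 0.247), let-7c-5p (−0.49, SE 0.171), let-7f-5p (−0.42, SE 0.209) and let-7b-5p (−0.23, SE 0.186). The edgeR test gave these an adjusted p of 0.218 to 0.710. All 9 of the 5p arms thus had a fitted change below 0, as did 59.7% of all names tested. Without adjustment, 6 of the 15 had a p under 0.05, 5 lower and 1 higher, against 35 of the 233 names (15%), of which 8.15% were lower and 6.87% higher. The median of the 15 was −0.42, and that of all 233 names was −0.20. With scaling by total count the median of all names was 0.07, and let-7d-5p stood at −0.86 relative to the median with TMM and at −0.87 with total counts.

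miR-98-5p could not be placed. It had 125, 344 and 62 counts in the control libraries and 1, 260 and 0 counts after L-Tyr. One L-Tyr library thus held nearly all of it, and the fitted −0.85 had an SE of 1.58. Without that library the fit gave −7.37, a value that depends on the prior count of the fit and is no bound.

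The one 3p arm that stood apart after L-Tyr was let-7d-3p, the opposite strand of the member called lower. It had 2110, 2837 and 4968 CPM in control cells and 6573, 5127 and 6085 CPM after L-Tyr, without overlap, where 24 of the 233 names lay wholly above control (10.3%). The log2 fold change of 0.76 (SE 0.301) had an adjusted p of 0.25 in edgeR's test. let-7b-3p had 864, 1887 and 3332 CPM in control cells and 3937, 1991 and 1845 CPM after L-Tyr. Its groups overlapped, with a change of 0.26 (SE 0.469). Its most abundant tag, with 32.7% of the arm's counts, went the other way. Alone it fitted at −1.39 (SE 0.607, adjusted p = 0.480 in edgeR's test of all entries), the 1 of 6 let-7b-3p tags tested that lay below 0. let-7e-3p fitted at 2.67 (SE 1.84), but 113 of the counts behind it were 1 tag found only in replicate 3 of L-Tyr, which does not occur in the hairpin of any member. The 3p arms of let-7f, let-7g and miR-98 did not pass the filter on low counts in this comparison, and let-7g-3p had no count in any library.

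**Figure D2:**
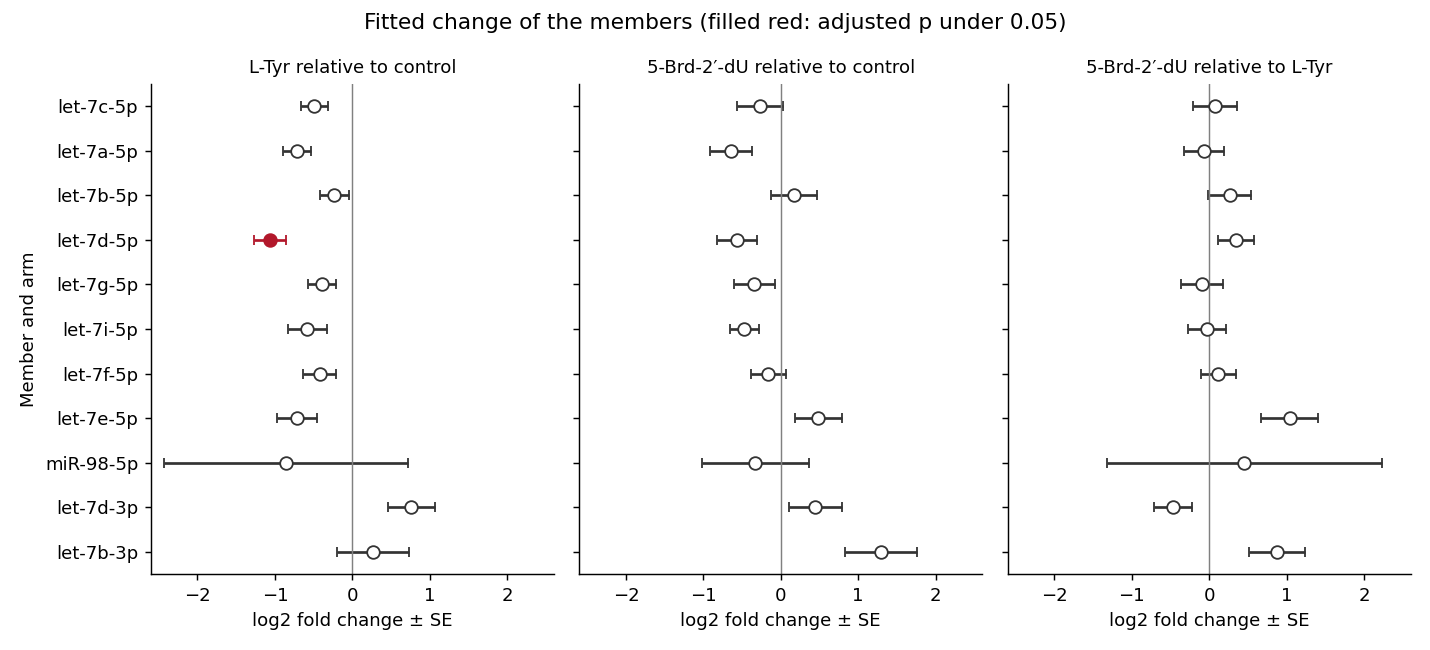
Log2 fold change with its SE (bars) of the 5p arms and of let-7d-3p and let-7b-3p, in the 3 comparisons, from edgeR's fit across all names. let-7d-5p after L-Tyr (−1.06) is the one value with an adjusted p under 0.05, drawn filled, and the wide bars of miR-98-5p reflect counts from 0 to 344 per library.

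For 5-Brd-2′-dU relative to control, no member was called, while 12 of the 253 names tested were (4.74%). At an unadjusted p under 0.05, edgeR's test listed 3 of the 16 members and arms tested, against 52 of all 253 names (20.6%), and DESeq2 called none of the 17 it fitted. They were let-7a-5p and let-7i-5p, lower (6.32% of all names), and let-7b-3p, higher (14.2%). let-7a-5p had 39761, 20052 and 27472 CPM after 5-Brd-2′-dU, overlapping with control. Its change was −0.64 (SE 0.268, adjusted p = 0.220 in edgeR's test) and −0.63 (SE 0.319) without replicate 3. let-7i-5p was at 10738, 9634 and 10382 CPM against 18187, 13984 and 14608 CPM in control cells. It was the one 5p arm wholly below control, as were 14.2% of all names, and its change was −0.47 (SE 0.187, adjusted p = 0.208 in edgeR's test) and −0.52 (SE 0.216) without replicate 3. let-7b-3p reached 5366, 3275 and 5027 CPM, where the lowest exposed library fell just under the highest control library (3332). Its change was 1.29 (SE 0.462, adjusted p = 0.178 in edgeR's test) and 1.2 (SE 0.515) without replicate 3.

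The remaining 5p arms did not share a direction in 5-Brd-2′-dU. let-7d-5p (15337, 8960 and 10789 CPM) fitted at −0.57 (SE 0.254), let-7g-5p at −0.34 (SE 0.270), let-7c-5p at −0.27 (SE 0.299) and let-7f-5p at −0.16 (SE 0.222). let-7e-5p (8628, 3522 and 5409 CPM) fitted at 0.49 (SE 0.307) and let-7b-5p at 0.17 (SE 0.295). None passed the test. let-7d-3p stood at 0.45 (SE 0.342). Without replicate 3 of 5-Brd-2′-dU these were −0.55 (let-7d-5p), −0.17 (let-7g-5p), −0.17 (let-7c-5p), −0.12 (let-7f-5p), 0.51 (let-7e-5p), 0.22 (let-7b-5p) and 0.22 (let-7d-3p). Of the 16 tested, 8 had a change below 0, against 48.2% of all names. The 3p arm of let-7e lay wholly above control, as did 13% of all names, but on 0 to 18 counts per control library and 19 to 99 counts after 5-Brd-2′-dU.

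Set against L-Tyr directly, 5-Brd-2′-dU gave no called member, with 6 of 222 names called in all (2.7%). edgeR's test put 2 of the 15 members and arms under an unadjusted p of 0.05, both higher in 5-Brd-2′-dU, against 28 of 222 names (12.6%, 8.56% higher), and DESeq2 called none. Every member overlapped between the exposures, while 9.01% of all names lay wholly lower and 11.3% wholly higher. let-7e-5p was 1.04 higher on the log2 scale (SE 0.366, adjusted p = 0.222 in edgeR's test) and 1.05 (SE 0.421) without replicate 3 of 5-Brd-2′-dU. let-7b-3p was 0.88 higher (SE 0.361, adjusted p = 0.342 in edgeR's test) and 0.75 (SE 0.418) without it. Its most abundant tag alone fitted at 1.90 (SE 0.453, adjusted p = 0.138 in edgeR's test of all entries), and 2 of 10 tags tested lay below 0. let-7d-5p differed by 0.35 (SE 0.236) and let-7d-3p by −0.46 (SE 0.246), and by 0.34 and −0.73 without replicate 3 of 5-Brd-2′-dU. The comparisons share libraries, so their values are set side by side without a correlation.

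How the family's 5p counts were divided among its members is a measure within a library, which does not depend on how libraries are scaled. The shares of let-7a, let-7b, let-7d and let-7e had an unadjusted p under 0.05 over the 3 groups in the exact permutation test of the F statistic, 4 of 9 members, and 3 to 4 of 9 with 1 library left out. let-7a took 22.7% ± 0.808 (SD, n = 3) of the 5p family in control cells, 20.1% ± 1.27 after L-Tyr and 17.9% ± 1.6 after 5-Brd-2′-dU (exact permutation p = 0.0107). let-7b went the other way, with 12.7% ± 1.21, 15.8% ± 0.414 and 17.4% ± 1.48 (n = 3 each, exact permutation p = 0.0107). For both, all 6 exposed libraries lay on 1 side of the 3 control libraries. let-7d took 9.44%, 7.77% and 8.79% in control cells, 6.42%, 6.64% and 5.30% after L-Tyr, and 6.86%, 7.30% and 7.67% after 5-Brd-2′-dU. No 2 groups overlapped, and the exact permutation p of 0.00357 is the smallest that 3 groups of 3 can give. let-7e was higher at 3.86%, 2.87% and 3.85% after 5-Brd-2′-dU, against 2.17%, 2.12% and 1.99% in control cells, and it was at 2.48%, 1.27% and 1.93% after L-Tyr (exact permutation p = 0.025). let-7c, the largest share, stayed between 29.9% and 34.98% in all libraries (exact permutation p = 0.768), and let-7f, let-7g, let-7i and miR-98 had an exact permutation p of 0.693 to 0.914. The p-values are two-sided by construction and unadjusted over the 9 members, and shares of 1 total are not independent of each other. Between 2 groups the exact permutation test cannot go below 0.1, which was its value wherever 2 groups did not overlap. Counting error was at most 0.631 percentage points on either side (95% Wilson interval). For let-7e the exact permutation p was 0.0643 when replicate 2 of L-Tyr was left out and 0.0536 when its replicate 3 was. Leaving out replicate 3 of the control gave an exact permutation p of 0.05. Without replicate 3 of 5-Brd-2′-dU, the difference of means between that exposure and control was −5.65 points for let-7a, 4.42 for let-7b, −1.59 for let-7d and 1.27 for let-7e.

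**Figure D3:**
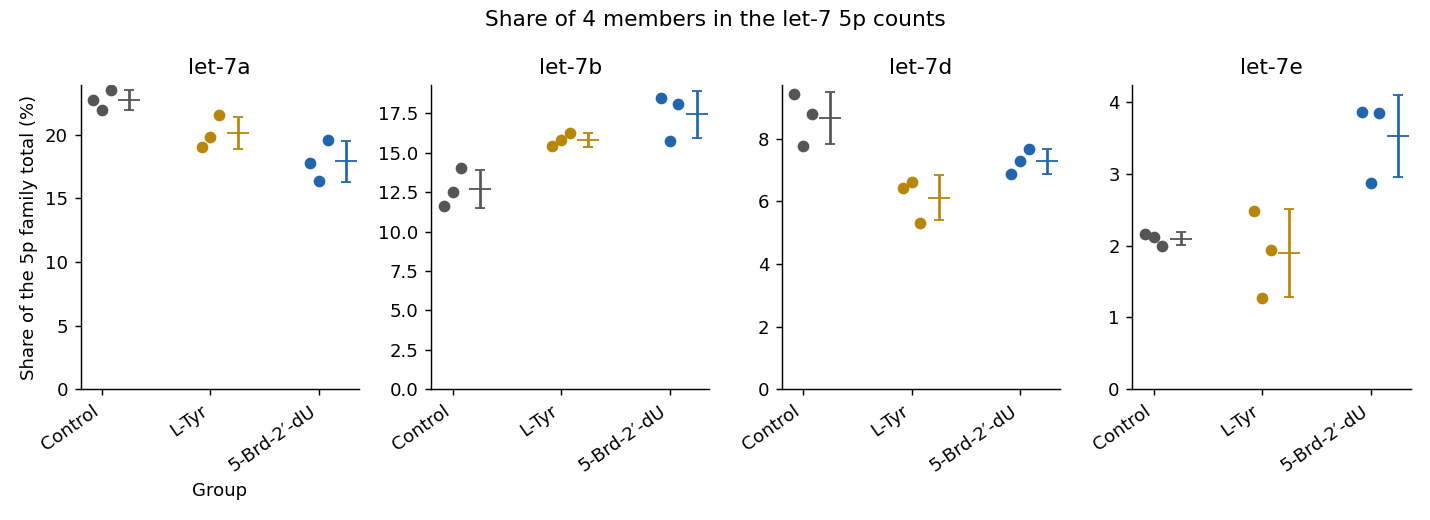
Share of let-7a, let-7b, let-7d and let-7e in the 5p counts of the family, in percent, with 1 point per library and the mean ± SD of 3 libraries beside the points. let-7a and let-7d lie lower and let-7b higher in all 6 exposed libraries than in the control libraries, and let-7e is higher in the 3 libraries of 5-Brd-2′-dU.

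The balance of the arms differed most between groups in let-7d, among the members. Its 3p arm took 9.004%, 17.5% and 18.2% of the let-7d counts in control cells, 41.3%, 31.7% and 41.4% after L-Tyr, and 19.2%, 28.0% and 32.4% after 5-Brd-2′-dU. Both exposures lay wholly above control, as did 6.56% of 61 names after L-Tyr and 13.1% after 5-Brd-2′-dU. Counting error was at most 1.97 points. The mean was 23.3 points higher after L-Tyr, and among the 61 names with enough counts in both arms 1 rose by more. After 5-Brd-2′-dU it was 11.7 points higher, and 5 of the 61 names rose by more. The exact permutation test over the 3 groups gave p = 0.00714, and 0.277 after Benjamini-Hochberg adjustment over the 61 names, of which none passed at 0.05 (0%). At an unadjusted p under 0.05 there were 9 (14.8%). let-7b-3p took 3.19%, 8.02% and 8.55% of the let-7b counts in control cells, 14.9%, 7.04% and 6.54% after L-Tyr, and 11.5%, 14.5% and 16.5% after 5-Brd-2′-dU. The libraries of 5-Brd-2′-dU lay above all controls, and those of L-Tyr overlapped with them (exact permutation p = 0.107, adjusted p = 0.436). The mean of let-7b was 7.57 points higher after 5-Brd-2′-dU, and 10 of the 61 names rose by more. Without replicate 3 of 5-Brd-2′-dU the difference from control was 8.72 points for let-7d and 6.40 points for let-7b. Over the 61 names the median difference to control was 0.180 points after L-Tyr and −0.0280 points after 5-Brd-2′-dU. In the other members with enough counts, let-7a, c, e, f and i, the 3p share was under 3% in every library except 2 L-Tyr libraries and 1 of 5-Brd-2′-dU for let-7e.

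**Figure D4:**
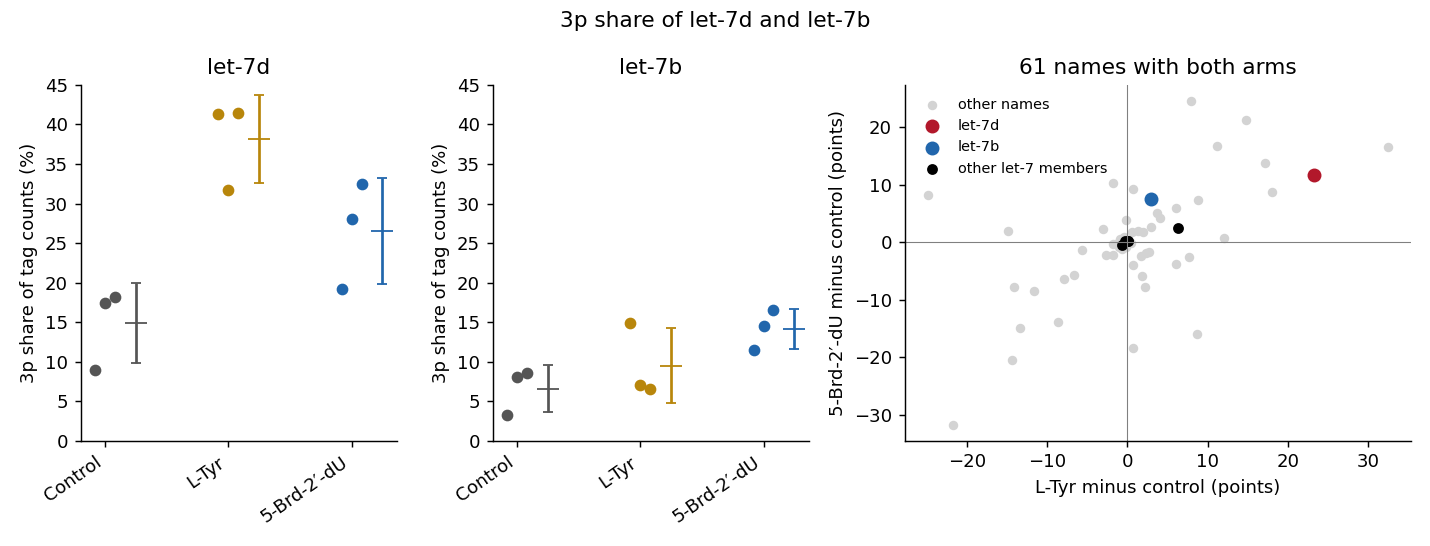
Left and middle, 3p share of the counts of let-7d and let-7b in percent, with 1 point per library and the mean ± SD of 3 libraries. Right, difference of the mean 3p share from control in percentage points for L-Tyr (x) and 5-Brd-2′-dU (y), 1 point per name, where let-7d lies at 23.3 and 11.7 and 29 of the 61 names lie within 5 points of 0 on both axes.

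The tags themselves show what was counted. No tag of the table is longer than 20 nt, while the mature 5p strands have 22, so that every 5p tag lacks bases at 1 or both ends of the strand. Whether longer reads were left out or shortened before they were counted could not be told, and the start positions below share this limit. The most abundant tag of each 5p arm but let-7b began at base 3 of the mature strand and ran to its last base, as in the tags of let-7d and let-7a, which lack the first base of the seed.
let-7d-5p most abundant tag: aggtagtaggttgcatagtt
let-7a-5p most abundant tag: aggtagtaggttgtatagtt
let-7b-5p most abundant tag: tgaggtagtaggttgtgtgg
For let-7b it began at base 1 and stopped before the end. The tag of let-7d-5p had 1310, 1891 and 1121 counts in control cells, 516, 951 and 507 after L-Tyr and 595, 997 and 692 after 5-Brd-2′-dU, and it made up 27.7% of the let-7d-5p counts. Taken alone in edgeR's test of all entries, it fitted at −0.74 (SE 0.245, adjusted p = 0.321) after L-Tyr and at −0.94 (SE 0.281, adjusted p = 0.189) after 5-Brd-2′-dU. No tag of a member was called in any comparison, where 1 of 1256 entries (0.0796%), 0 of 1488 (0%) and 2 of 1234 (0.162%) were called in all. At an unadjusted p under 0.05, edgeR's test listed 32 of 188 member tags after L-Tyr, 30 of them lower, against 9.63% of all entries (5.1% lower). After 5-Brd-2′-dU it listed 19 of 212, 16 of them lower, against 10.5% (3.56% lower). Between the exposures it listed 4 of 178, all higher in 5-Brd-2′-dU, against 7.29% (4.46% higher). Of all entries DESeq2 called 48 of 1799, 37 of 1873 and 41 of 1600 in the 3 comparisons. Among member tags it called 3 of 241, 2 of 249 and 1 of 215. Many of these tags are fragments of the same strand, so they are not separate observations. For let-7d-5p, 13 of 15 tags tested had a change below 0 after L-Tyr, and for let-7d-3p 1 of 8.

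Over the 9 libraries, 12.2% of the 5p counts of the family came from tags that start at base 1, against a median of 23.7% over 46 other 5p names. Base 3 was the start of 32.2%, base 4 of 21.8% and base 5 of 18.2%. let-7b differed from its relatives, with 28.8% of its counts from base 1, and the largest parts at base 3 were those of miR-98 (46.7%) and let-7i (41.9%). The groups differed little: tags from base 1 took 11.7% ± 1.10 (SD, n = 3) of the family in control cells, 11.9% ± 0.460 after L-Tyr and 13.4% ± 1.47 after 5-Brd-2′-dU, and the groups overlapped. The share of a member's 5p counts away from its most frequent start had no adjusted p under 0.05 among 62 names (0%, with 3.23% at an unadjusted p under 0.05), and the lowest exact permutation p of a member was that of let-7b (0.0321, adjusted p = 0.902).

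**Figure D5:**
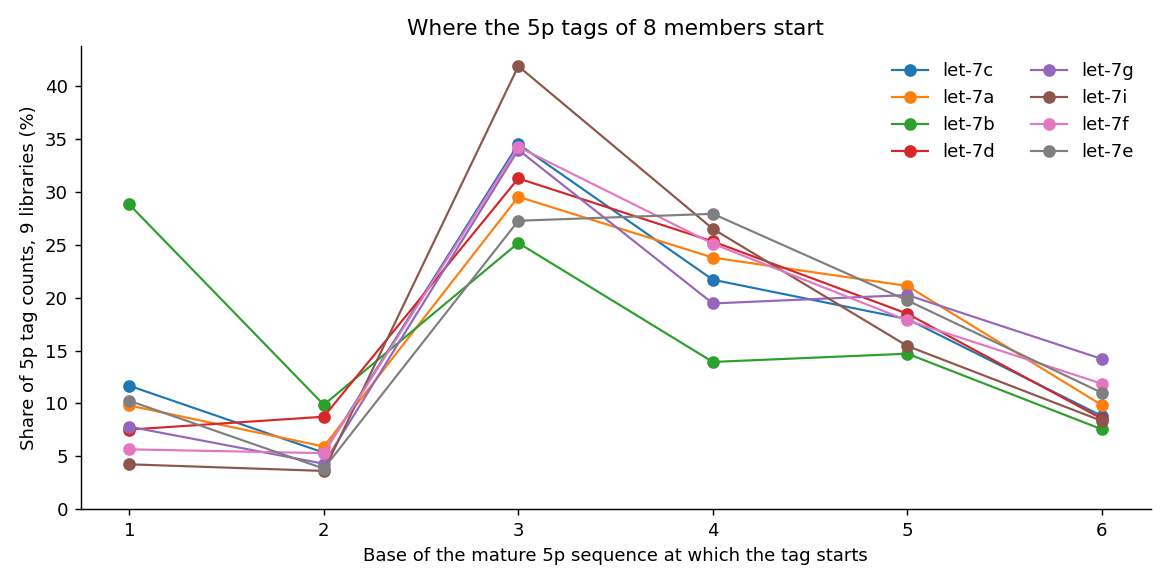
Share of the 5p tag counts of 8 members, summed over the 9 libraries, by the base of the mature strand at which the tag starts. All but let-7b and let-7e peak at base 3, where let-7i reaches 41.9%, while let-7b has its largest part at base 1 (28.8%).

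The 3p arms carried extra T bases at their end that the hairpin does not hold. Adding U to the end of let-7 precursors is a known step of their maturation and decay, and it appears as T in the table. Such tags, with 1 to 3 added T, held 47.2% of the counts of let-7b-3p, against a median of 0.416% over 115 other 3p names, of which 2 were higher. The tag that follows is the most abundant one listed under let-7a-3p and also under let-7c-3p, whose strands from let-7a-1 and let-7c-2 are the same, so it cannot be placed in either. The capital marks the added base.
let-7a-3p or let-7c-3p most abundant tag: atacaatctactgtctttcT
The share in let-7b-3p was 58.0%, 38.1% and 36.8% in control cells, 75.9%, 44.1% and 58.5% after L-Tyr, and 47.5%, 46.4% and 43.4% after 5-Brd-2′-dU, and all groups overlapped. Of the rarer 3p arms, let-7f (70.5%) and let-7e (9.76%) carried it too, on few counts. The shares listed under let-7a (43.0%) and let-7c (28.9%) come from that 1 shared tag, while let-7d-3p and let-7i-3p had none.

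Other miRNAs are known to share clusters with let-7 hairpins. For miR-99a, miR-99b, miR-100, miR-125a and miR-125b, 8 arms were tested. None was called after L-Tyr (4 of 8 above 0, median −0.07), and after 5-Brd-2′-dU all 8 had a change above 0 (median 0.64) with 1 called, miR-99b-5p (1.19, SE 0.238, adjusted p = 0.0364 in edgeR's test), where 51.8% of all names lay above 0. Without replicate 3 of 5-Brd-2′-dU all 8 were still above 0 (median 0.73, with 47.0% of all names above 0), but none was called by edgeR, and miR-99b-5p was at 1.22 (SE 0.241, adjusted p = 0.0651). The change of miR-100-5p was 4.17 (SE 1.49) with that library, which held 4445 CPM of it against 262 and 145 CPM in the other replicates, and 1.198 (SE 1.13) without it. miR-99b-5p, known as a neighbour of let-7e, went from 32912 to 68448 CPM in the mean, while let-7e-5p went from 4542 to 5853 CPM. miR-99a-5p, beside let-7c-1, fitted at 0.22 (SE 0.169) after L-Tyr and 0.65 (SE 0.264) after 5-Brd-2′-dU, or 0.77 (SE 0.212) without replicate 3. miR-9 and miR-30a to miR-30e, known to target Lin28, gave 1 called arm of 11 after L-Tyr, where 2.58% of all names were called. It was miR-30d-5p (0.87, SE 0.152, adjusted p = 0.0198 in edgeR's test). Of the 11 arms of both strands, 4 lay above 0 (median −0.33), and the arms split by strand. The 5p arms of miR-30a (0.09), miR-30c (0.49), miR-30d and miR-30e (0.49) lay above 0. The 5p arms of miR-9 (−0.42) and miR-30b (−0.54) and every 3p arm tested lay below 0. After 5-Brd-2′-dU edgeR called 0 of 11, with or without replicate 3. Of these, 4 lay above 0 with it (median −0.04): miR-30a-5p, miR-30c-5p, miR-30d-5p and miR-30e-3p. Without it 3 did (median −0.32), the same ones except miR-30a-5p. Among 125 other names at or above the median level, miR-106b-3p (r = 0.789), miR-183-5p (r = 0.787) and miR-151-5p (r = 0.743) had the highest Pearson correlation of log2 CPM with the 5p family total over the 9 libraries. The points share library, scaling and group, and this is a description only.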

How the data were processed

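Small RNA of 9 libraries was used. The count table deposited by the authors holds raw counts per entry, not normalized, from the Small RNA app of BaseSpace with mm9 and miRBase. The authors' normalized table and their tables of fold changes and p-values from DESeq2 were not used, and 0 columns belonged to no sample.

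Counts were summed by name and arm over the whole table. Of 4 sets of entries with the same sequence and the same counts, 1 was kept. 23 tag sequences, with 1.52% of the family's counts, are listed under several members. Each comparison was fitted on its 6 libraries with edgeR 4.0.16 (TMM, filterByExpr, quasi-likelihood F test, Benjamini-Hochberg over all names or entries, calls at adjusted p under 0.05) in R 4.3.3, with DESeq2 1.42.0 as an alternative. Shares were tested by exact permutation. 3p shares needed a mean count of at least 10 in each arm and start positions a mean 5p count of at least 50. All tests were tested on simulated data. The labels number the replicates of each group, and same-numbered libraries did not deviate together (correlations of −0.09 to 0.02), so the numbers were not taken as pairs. The precision follows from 144452 to 424122 counts per library.

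The members, lists and tests were chosen with earlier results of these data known. All members and both arms are named. The most abundant tag stands for a member, the 3 names most like the family were taken at or above the median level, and the cluster partners, Lin28-targeting miRNAs and markers were listed by name. Alternatives were other scalings, filters, tests and library sets, tags of 1 name only, tags of at least 17 nt, and, chosen after seeing the data, tags assigned by sequence, 1 entry per sequence, and the cluster partners and Lin28-targeting miRNAs without replicate 3 of 5-Brd-2′-dU. A change was taken as reversed when its sign differed and at least 1 of both values lay more than 1 SE from 0.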

Additional observations from a re-analysis of the deposited data

How the results depend on the processing

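The count of members called after L-Tyr was 1 and became 0 with scaling by total count and with all 9 libraries in 1 fit, and 2 with no filter and with a block for the replicate number (let-7a-5p and let-7d-5p, adjusted p = 0.0467 and 0.00844 in edgeR's test). The replicate numbers do not pair the libraries, and the block changed no other call of a member. Leaving out 1 library gave 0 to 1 in this comparison and 0 in the other 2, and the 1 called without replicate 2 of L-Tyr was miR-98-5p. For 5-Brd-2′-dU relative to control no filter gave 2 of 17 members and arms, against 49 of 624 names in all. With no filter after L-Tyr, 12 of 574 names were called in all. Member tags called were 0 in the main fits. After L-Tyr they were 2 of 389 with no filter (11 of 3829 entries in all). A mean count of at least 50 gave 2 of 112 (8 of 599), and DESeq2 gave 3 of 241 (48 of 1799). For 5-Brd-2′-dU relative to control they were 2 of 406 with no filter (85 of 4269) and 2 of 249 with DESeq2 (37 of 1873). Between the exposures DESeq2 called 1 of 215 (41 of 1600). No tag of a member was called with 1 library left out. The block moved all called names from 6 to 13 after L-Tyr, from 12 to 1 and from 6 to 2 in the other comparisons.

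Of 807 values of 46 member changes under the alternatives, 4 reversed: let-7b-5p after L-Tyr with total counts (0.035) and without replicate 3 of the control (−0.36 to 0.028 over the libraries left out), let-7c-5p between the exposures without replicate 1 of 5-Brd-2′-dU (−0.39 to 0.19 over the libraries left out), and let-7e-3p between the exposures with tags assigned by sequence (2.18), which leaves out a tag of 113 counts. The cause of the others was not tested. The family totals moved by less than the spread within groups in every alternative run, leave-one-out included, with log2 ratios of the 5p arms from −0.60 to −0.28 (with total counts) for L-Tyr and from −0.73 to −0.26 for 5-Brd-2′-dU, and of the 3p arms from 0.35 to 1.05 and from 0.39 to 1.09. Depth limits miR-98 and the 3p arms other than let-7d and let-7b.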
